A study of Homo sapiens with 18 samples.

Results

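Cells of a HEK293T line that carries an inducible reporter for 102 proline-arginine repeats, kept without doxycycline, were compared with cells of the control line for the red fluorescent protein ChFP kept the same way. The 6 libraries, 3 uninduced 102xPR (102xPR uninduced) and 3 uninduced ChFP (ChFP uninduced), were chosen by their labels from the 18 libraries of the series. HEK293T is an established human embryonic kidney cell line. Each line was stably made to carry 1 construct behind a Tet-inducible promoter, GFP-P2A-102xPR or GFP-P2A-ChFP, where P2A is a peptide that separates GFP from what follows it during translation. The labels do not say whether a line is 1 clone or a pool. The other 12 libraries are the same lines after 48 h of doxycycline, and a GFP-P2A-poly-adenylate line without and with it. All 18 libraries were made from poly(A) RNA of cell lysates that had been cleared by centrifugation, and the labels put them on the same flow cell. Total counts of the 6 libraries ran from 17289709 to 27331102. Replicates are numbered 1 to 3, and no label says that each was its own culture. The p-values therefore speak only of the scatter among these libraries, part or all of which may be technical.

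Poly-PR, rich in arginine, is one of the dipeptide repeat proteins made from the expanded repeat of C9orf72, the most common genetic lesion of familial amyotrophic lateral sclerosis and frontotemporal dementia. It binds nucleoli and ribosomes, and long repeats stall ribosomes as they are translated. In a Tet-on line the reporter is meant to be silent until doxycycline is added. A comparison of uninduced lines therefore shows the baseline against which the effect of induction is read, including any difference between lines and any expression that escapes the promoter. Counts on the reporter transcripts were not analysed here.

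The mitochondrially encoded share of counts, over the genes of the mitochondrial genome, was 6.68%, 6.97% and 6.96% in uninduced ChFP replicates 1, 2 and 3. It was 4.77%, 4.71% and 4.85% in uninduced 102xPR replicates 1, 2 and 3. Each 102xPR library lay below each ChFP library, and the means were 6.87% ± 0.166 and 4.78% ± 0.0708 (SD, n = 3 each). The difference was -2.09 percentage points, with an exact two-sided permutation p of 0.1, the smallest that 3 against 3 libraries can give. In bulk RNA, a change in RNA per cell and a change in the number of cells in a given state cannot be told apart.

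This share followed a division of all 18 libraries that no label names. In a principal component analysis of log2 CPM (counts scaled to a common library size with TMM factors, the usual CPM unit, here and below), the first component held 58.2% of the variance. The second held 7.56%, and libraries fell on either side of 0 along it, 8 on one side (the set of 8) and 10 on the other (the set of 10). The set of 8 held every uninduced ChFP library, and the set of 10 every uninduced 102xPR library. The mitochondrially encoded share was 4.96% to 7.67% in the set of 8 and 3.37% to 5.59% in the set of 10. The sets cut across 3 other groups, where induced ChFP replicate 3, induced 102xPR replicate 3 and uninduced poly-adenylate replicate 1 each stood apart from the other two libraries of their group. The division was the same when it was read from the other 12 libraries alone and the 6 were projected onto it. Within the 6 libraries, the line and the library set cannot be told apart, and what the sets are was not tested. A second fit had the set as a covariate, and its median is given for each pathway or gene family list and its estimate for the genes described most closely. The covariate is estimated from the groups that hold libraries of both sets.

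Of 15332 genes tested, 1886 (12.3%) differed between uninduced 102xPR and uninduced ChFP cells at an adjusted p under 0.05 (edgeR's quasi-likelihood test over all 18 libraries, Benjamini-Hochberg). In 102xPR cells 1103 genes (7.19%) were higher and 783 (5.11%) lower. The differences were small, with a median absolute log2 fold change of 0.28 among the genes called. More than 2-fold differences numbered 39, of which 30 were higher and 9 lower in 102xPR cells. In 1876 of the 1886 the 2 groups of 3 libraries did not overlap in CPM, against 39.2% of all genes tested (19.6% with every 102xPR library above and 19.5% with every one below). Leaving out 1 of the 6 libraries gave from 326 genes (without ChFP replicate 1) to 942 (without ChFP replicate 3), and a fit of only the 6 libraries gave 3685. For scale, the same 2 lines after 48 h of doxycycline differed in 67% of the genes tested.

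With the library set as a covariate, no gene passed (0 of 15332, 0%; smallest adjusted p 0.0833), and 1246 genes had an unadjusted p under 0.05 against 4632 without it. DESeq2's Wald test with the same covariate called 5 genes. The median absolute log2 fold change of the 1886 genes was 0.12 with the covariate, and 1864 of them (98.8%) kept their sign. The median standard error was 0.08 without and 0.09 with the covariate. With the log2 mitochondrially encoded share as the covariate in its place, 2 genes passed.

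**Figure D1:**
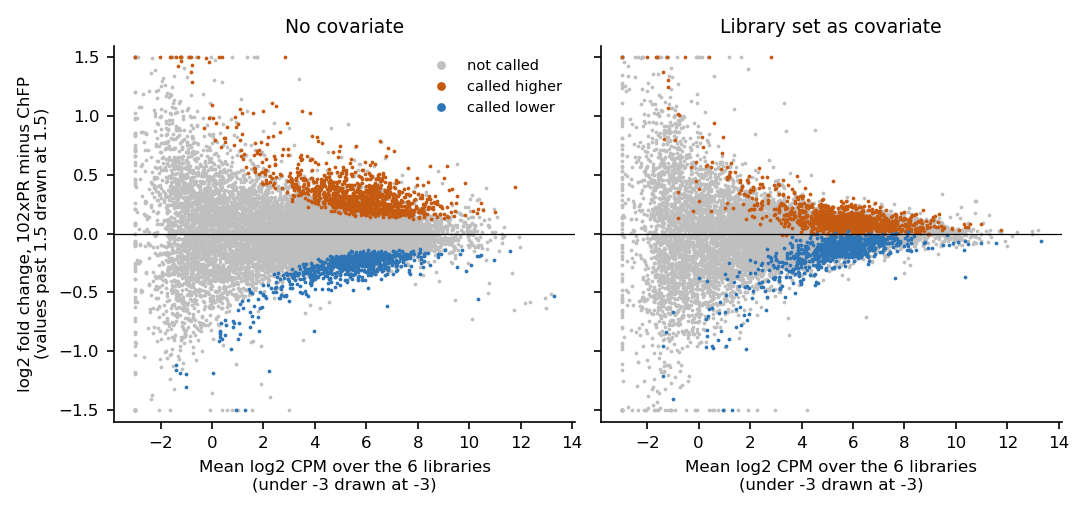
Log2 fold change of uninduced 102xPR over uninduced ChFP (y axis, values past 1.5 drawn at 1.5) against the mean log2 CPM of the 6 libraries (x axis) for the 15332 genes tested, without a covariate (left) and with the library set as one (right). Colours mark in both panels the 1103 genes called higher and the 783 called lower without the covariate, whose median absolute change is 0.28 on the left and 0.12 on the right.

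The same genes separated libraries within groups that share a label. Among the 1103 higher genes, 932 (84.5%) were higher in uninduced poly-adenylate replicate 1, the library of that group in the set of 10, than in both its replicates 2 and 3. Over all genes tested this was so for 42.0%. Induced ChFP replicate 3, of the set of 8, was below both other replicates for 1012 of the 1103 (91.7%, against 39.1% of all genes tested). Induced 102xPR replicate 3, of the set of 10, was above both others for 990 (89.8%, against 37.6%). Among the 783 lower genes, 70.8%, 78.4% and 81.2% followed the sets in the same 3 groups, against 37.5%, 36.0% and 38.9% of all genes tested.

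Genes called in the 2 directions differed in what their transcripts are made of. The 1103 higher genes had a median GC content of 58.4% and a median length of 2515 bases in their longest transcript, and the 783 lower genes 43.7% and 5614 bases, against 48.5% and 3587 bases for all genes tested. A pair of nuclear genes that serve mitochondrial gene expression, called in opposite directions, shows the contrast. POLRMT, the RNA polymerase that transcribes the mitochondrial genome (chromosome 19, 617221 to 633537), stood at 92.3, 97.0 and 99.0 CPM in ChFP and 111, 119 and 115 CPM in 102xPR libraries. GABPA, a subunit of the transcription factor NRF-2 that drives many nuclear genes for the respiratory chain (chromosome 21, 25734972 to 25772460), stood at 75.4, 78.6 and 77.1 CPM against 64.0, 63.3 and 64.6 CPM. The groups did not overlap for either gene. The log2 fold changes were 0.26 ± 0.06 for POLRMT and -0.27 ± 0.06 for GABPA (± SE of the fit, here and below), with adjusted p 0.00999 and 0.0136 in edgeR's test. With the set covariate they were 0.17 ± 0.06 and -0.11 ± 0.06.

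The middle 150 bases of the longest coding exon of each gene, from the longest protein coding transcript of GENCODE release 29 (GRCh38), are shown 5′ to 3′ with G and C in capitals, to show the difference in GC content. The POLRMT stretch is in exon 10 of 21 (chr19:621377-621526, minus strand) and is 79.3% GC. The GABPA stretch is in exon 5 of 10 (chr21:25752037-25752186, plus strand) and is 42.7% GC. Over the whole coding sequence the values are 66.3% and 42.1%.
POLRMT coding: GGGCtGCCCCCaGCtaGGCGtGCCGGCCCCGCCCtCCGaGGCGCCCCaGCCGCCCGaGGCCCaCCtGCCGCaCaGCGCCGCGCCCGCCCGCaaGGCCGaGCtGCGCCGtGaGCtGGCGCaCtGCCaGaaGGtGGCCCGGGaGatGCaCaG
GABPA coding: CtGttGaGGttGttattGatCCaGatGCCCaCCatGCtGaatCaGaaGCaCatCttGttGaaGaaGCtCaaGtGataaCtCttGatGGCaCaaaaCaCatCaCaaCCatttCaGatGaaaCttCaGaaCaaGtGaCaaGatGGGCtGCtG

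The promoters did not differ in this way. The 250 bases upstream of the start had a median GC content of 66.8% for the higher genes with an entry in the RefSeq promoter table (915), 66.4% for the lower (654) and 65.2% for all tested (12083). The upstream 250 bases of both genes (RefSeq, GRCh38.p14) are shown with each CG pair in capitals. POLRMT (chr19:633538-633787, minus strand) holds 23 CG pairs at 65.2% GC, and GABPA (chr21:25734722-25734971, plus strand) 14 at 62.4%, where the median of all genes tested is 21.
POLRMT upstream: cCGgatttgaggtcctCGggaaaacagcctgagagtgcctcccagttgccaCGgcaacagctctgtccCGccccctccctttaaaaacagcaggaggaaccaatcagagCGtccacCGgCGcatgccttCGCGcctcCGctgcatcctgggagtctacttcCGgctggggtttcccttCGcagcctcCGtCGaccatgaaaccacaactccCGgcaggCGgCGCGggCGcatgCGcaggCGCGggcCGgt
GABPA upstream: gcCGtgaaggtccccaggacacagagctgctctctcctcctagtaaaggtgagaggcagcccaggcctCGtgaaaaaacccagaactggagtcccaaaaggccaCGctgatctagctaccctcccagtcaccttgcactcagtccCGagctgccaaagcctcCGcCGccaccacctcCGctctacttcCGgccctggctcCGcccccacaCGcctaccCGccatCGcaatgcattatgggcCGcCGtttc

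The genes were divided into 10 bins of equal size by transcript GC content, and the median log2 fold change went from -0.07 in the lowest bin to 0.17 in the highest. In the highest bin 21.7% of genes were called higher and 0.675% lower, and in the lowest 2.23% and 8.43%. By transcript length the median went from 0.10 in the shortest bin to -0.12 in the longest. With the set covariate the same medians ran from -0.03 to 0.04 by GC content and from 0.02 to -0.03 by length. These are descriptions, since GC content and length are related to each other and to the level of a gene.

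The mitochondrial genome encodes 13 mRNAs, all for subunits of the respiratory chain and ATP synthase. All 13 had lower values in every uninduced 102xPR library than in every uninduced ChFP library, where 19.5% of all genes tested did, with a median log2 fold change of -0.55 against -0.01 for all genes tested. COX1, the catalytic subunit of cytochrome c oxidase (bases 5904 to 7445 of the mitochondrial genome), was at 11526, 12462 and 12043 CPM in ChFP and 8138, 8360 and 8453 CPM in 102xPR libraries. Its log2 fold change of -0.53 ± 0.15 passed the test (adjusted p 0.0402, edgeR). ND6, a complex I subunit and the mRNA encoded on the opposite strand from the other 12, was at 1370, 1391 and 1391 CPM against 843, 849 and 817 CPM, which gave -0.73 ± 0.24 and an adjusted p of 0.0685. CYTB, the core of complex III, was at 5547, 5500 and 5540 CPM against 3711, 3546 and 3787 CPM, and its change of -0.59 ± 0.19 had an adjusted p of 0.0609. COX1 was the 1 of 13 that passed in the fit of all libraries, whose spread includes the groups split between the sets, and all 13 passed in a fit of only the 6 libraries.

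The other complex I subunits ran from -0.65 ± 0.22 for ND5 to -0.20 ± 0.19 for ND3, with ND4 at -0.64, ND4L at -0.56, ND1 at -0.50 and ND2 at -0.42. COX2 and COX3 were at -0.55 and -0.51, and the ATP synthase subunits ATP6 and ATP8 at -0.58 and -0.40. The median of the 13 was 0.02 with the set covariate, and the estimates ran from -0.06 ± 0.05 for COX1 to 0.34 ± 0.09 for ND3. The 12 that did not pass are given as values.

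Nuclear genes for the same complexes were called in the opposite direction. Of 74 tested subunits of the respiratory chain encoded in the nucleus, 23 were higher in 102xPR cells (7.19% of all genes tested were) and none lower, with a median log2 fold change of 0.16. In 49 of the 74 every 102xPR library lay above every ChFP library, as in 19.6% of all genes tested. UQCRC1, a core subunit of complex III, was at 209, 218 and 217 CPM in ChFP and 248, 246 and 244 CPM in 102xPR libraries (0.20 ± 0.04, adjusted p 0.0099 in edgeR). NDUFS3 and NDUFV1, core subunits of complex I, were both higher by 0.34 ± 0.07. ATP5F1E, the small epsilon subunit of ATP synthase, had the largest change of the list, from 3.56, 2.96 and 4.29 CPM to 7.82, 8.17 and 6.56 CPM (1.09 ± 0.28). This is a low level in a list whose 74 members summed to 13461 to 13592 CPM in ChFP libraries. How its reads were assigned is not known, so its value is uncertain. The median of the 74 was 0.02 with the set covariate, where UQCRC1 stood at 0.18 ± 0.05 and ATP5F1E at 0.28 ± 0.20. Of 44 factors that express the mitochondrial genome, 4 were higher, among them SLIRP, which stabilises mitochondrial mRNAs (0.31 ± 0.06), and the elongation factor TSFM (0.21 ± 0.06). GABPA was the 1 that was lower, and the median was 0.02 (0.00 with the set covariate).

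Genes of translation were called in both directions, where 7.19% of all genes tested were higher and 5.11% lower. Of 78 cytosolic ribosomal protein genes, 8 were higher and 4 lower, with a median of 0.07 (-0.03 with the set covariate). RPLP0, of the ribosomal stalk, was at 1265, 1324 and 1277 CPM in ChFP and 1621, 1507 and 1499 CPM in 102xPR libraries (0.26 ± 0.07). RPL11 was lower by 0.18 ± 0.05 and RPS24 by 0.27 ± 0.07 (log2 -0.18 and -0.27). RPS10 went from 9.09, 9.37 and 9.35 CPM to 18.1, 19.1 and 19.5 CPM (1.03 ± 0.17), but its reads may be split with near-identical copies and a readthrough gene, so its value is uncertain. Among 46 translation initiation and elongation factors, 4 were higher, such as EIF6, which keeps ribosomal subunits apart (0.29 ± 0.06). Another 5 were lower, such as EEF1G (-0.22 ± 0.06) and EIF4B, a helper of the helicase that unwinds mRNA leaders (-0.17 ± 0.05). PABPC1, which binds poly(A) tails, was at 1032, 1078 and 1015 CPM against 819, 845 and 845 CPM (-0.32 ± 0.07). The list's median was -0.04 (-0.03 with the set covariate).

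Ribosome biogenesis factors numbered 68, of which 8 were higher and 1 lower (median 0.02, and 0.06 with the set covariate). For comparison, 7.19% of all genes tested were higher and 5.11% lower. RRP9, a protein of the U3 snoRNP that starts the processing of ribosomal RNA, was at 45.6, 47.4 and 43.6 CPM in ChFP and 60.9, 58.6 and 63.0 CPM in 102xPR libraries (0.42 ± 0.06, adjusted p 0.00368 in edgeR). NOL6 (0.28 ± 0.07), BOP1 (0.31 ± 0.08) and NOC4L (0.22 ± 0.05), which serve the assembly of either subunit, were also higher. With offsets for GC content and length, 3 of the 68 were higher, and NOL6 (0.22), BOP1 (0.10) and NOC4L (-0.00070) did not pass (adjusted p 0.058, 0.139 and 0.996, edgeR), while RRP9 did (0.25, adjusted p 0.0135). Host genes of snoRNAs, the guides of ribosomal RNA modification, held 8 higher and no lower genes of 22 tested, with a median of 0.31. SNHG19 went from 3.35, 3.53 and 2.70 CPM to 6.72, 6.49 and 7.80 CPM (1.11 ± 0.19, adjusted p 0.00417), and SNHG15 was higher by 0.47 ± 0.10. In the uninduced poly-adenylate line SNHG19 was at 6.197 CPM in replicate 1, of the set of 10, and at 3.14 and 4.57 CPM in replicates 2 and 3, of the set of 8. The list's median was 0.10 with the set covariate, and 4 were higher with offsets for GC content and length.

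Ribosome-associated quality control clears stalled ribosomes and their nascent chains. Of 37 genes of this system tested, 4 were higher and 3 lower, where 7.19% and 5.11% of all genes tested were. Their median was -0.01. TCF25, which helps build ubiquitin chains on stalled nascent peptides, was higher by 0.35 ± 0.07. VCP, the ATPase that extracts them, went from 313, 309 and 311 CPM to 352, 365 and 362 CPM (0.21 ± 0.05), and its cofactor NPLOC4 was higher by 0.18 ± 0.04. CNOT4, a ubiquitin ligase of the deadenylase complex, was lower, at 54.1, 56.6 and 46.4 CPM against 36.6, 38.6 and 38.2 CPM (-0.48 ± 0.11). The collision sensor ZNF598 and the ligase LTN1, which were not called, had log2 fold changes of 0.05 and -0.11, values chosen after they were seen. The list's median was 0.04 with the set covariate.

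Stress response lists differed in how many members were called, where 12.3% of all genes tested were. Among 41 targets of ATF4, the transcription factor of the integrated stress response, 2 were higher and none lower (median -0.02, and -0.04 with the set covariate). They were the amino acid transporter subunit SLC3A2 (100, 112 and 121 CPM against 139, 140 and 140 CPM, 0.34 ± 0.07) and SESN2, an inhibitor of mTORC1 signalling (0.28 ± 0.09). Of 27 genes of the endoplasmic reticulum unfolded protein response, 4 were higher, including the disulfide isomerase P4HB (0.16 ± 0.04), and 2 lower, including CREB3L2 (-0.23 ± 0.06), with a median of -0.02 (0.03 with the set covariate). Under offsets for GC content and length, 2 of the unfolded protein list were higher and none lower. The heat shock list held 1 called gene of 21, the mitochondrial co-chaperonin HSPE1 (list median 0.01, and 0.05 with the set covariate). It was at 67.2, 66.6 and 68.4 CPM in ChFP and 118, 110 and 121 CPM in 102xPR libraries (0.79 ± 0.22, 0.13 with the set covariate). HSPE1 also stood at 101 CPM in uninduced poly-adenylate replicate 1 and at 68.6 and 62.0 CPM in replicates 2 and 3. AARS1 was the 1 of 19 cytosolic aminoacyl-tRNA synthetases called, lower by 0.17 ± 0.05 (log2 -0.17), and the list's median was -0.11 (-0.03 with the set covariate). IER2 was the 1 of 31 immediate early genes called (0.26 ± 0.08), and that list's median was 0.04 in both fits. Offsets for GC content and length gave none higher and 1 lower in the immediate early list.

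None of 26 p53 targets passed the test by edgeR, where 12.3% of all genes tested did. Their median was 0.17 (0.03 with the set covariate). Likewise 0 of 28 interferon response genes passed, with a median of -0.06 (-0.09 with the set covariate). Offsets for GC content and length gave 2 lower and none higher in the interferon list. Of 25 targets of NRF2, the transcription factor of the oxidative stress response, 4 were higher, among them the haem-degrading enzyme HMOX1 (27.2, 35.3 and 34.7 CPM against 39.1, 43.4 and 45.8 CPM, 0.40 ± 0.12). NFE2L2, which encodes NRF2 itself, was the 1 that was lower (-0.22 ± 0.06), and its inhibitor KEAP1 was higher (0.28 ± 0.07). The median of the 25 was 0.01 (-0.00 with the set covariate). Over all genes tested 7.19% were higher and 5.11% lower. Offsets for GC content and length turned the balance of the NRF2 list, to 1 higher and 3 lower. No metallothionein or zinc exporter was called of 6 tested, and their median turned from 0.10 to -0.09 with the set covariate. Under the offsets 1 of this list was higher.

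Metabolic genes were called in both directions, where 7.19% of all genes tested were higher and 5.11% lower. Among 26 cholesterol synthesis genes, whose median turned from 0.02 to -0.05 with the set covariate, the mevalonate kinase MVK was higher (0.25 ± 0.07). Of 24 fatty acid synthesis genes, 2 were higher and 3 lower, with a median of -0.02 in both fits. FASN, the fatty acid synthase, was higher by 0.23 ± 0.06, while the elongases ELOVL6 (-0.19 ± 0.05) and ELOVL2 (-0.20 ± 0.05) were lower and ELOVL1 was higher (0.19 ± 0.06). The estimates for ELOVL6 and ELOVL2 with the set covariate were -0.20 and -0.23. Under offsets for GC content and length, 1 of the fatty acid list was higher and none lower, so neither elongase was called lower. Of 33 genes of glycolysis and hypoxia, 3 were higher, such as the hexokinase HK2 (0.20 ± 0.05), and MXI1, a MYC antagonist, was lower (-0.25 ± 0.06). The list's median was 0.04 (0.03 with the set covariate), and under the same offsets 1 of it was higher and 1 lower.

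Cell cycle genes were called in different directions by phase, where 7.19% of all genes tested were higher and 5.11% lower. Of 47 genes of the G1/S transition and DNA replication, 7 were higher and 1 lower, with a median of 0.04. POLD1, the catalytic subunit of DNA polymerase delta, was at 95.4, 94.3 and 95.8 CPM in ChFP and 124, 113 and 119 CPM in 102xPR libraries (0.32 ± 0.06). CDK4 and cyclin D3 (CCND3) were higher by 0.29 ± 0.06 and 0.28 ± 0.06, and CDK6 was lower (-0.25 ± 0.06). Of 45 genes of G2/M and mitosis none was higher and 8 were lower, with a median of -0.10. KIF20A, a kinesin of cytokinesis, went from 128, 124 and 122 CPM to 94.4, 101 and 99.9 CPM (-0.34 ± 0.07), and the spindle checkpoint kinase BUB1B was lower by 0.31 ± 0.07 (log2 -0.31). With the set covariate the medians were 0.05 and -0.04. Median transcript GC content was 49.1% in the first list and 42.6% in the second.

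Replication-dependent histone mRNAs, which lack a poly(A) tail in most cells and so reach poly(A) libraries in small amounts, held 4 higher and no lower genes of 28 tested. Across all genes tested 7.19% were higher and 5.11% lower. The histone list's median was 0.27 (0.16 with the set covariate). H2AC6 was at 1.17, 1.1505 and 1.41 CPM in ChFP and 2.58, 2.202 and 2.58 CPM in 102xPR libraries (0.99 ± 0.20). H2BC11 was higher by 0.56 ± 0.16 and the linker histone H1-2 by 0.34 ± 0.10. The summed level of the 28 tested histone genes was 114 to 127 CPM in ChFP and 134 to 150 CPM in 102xPR libraries. The sum leaves out 31 of the 59 listed genes, which were too low to test.

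Matrix and adhesion genes gave calls in both directions, where 7.19% of all genes tested were higher and 5.11% lower. Of 44 extracellular matrix genes, 2 were higher and 6 lower, and the median was -0.09 in both fits. The basement membrane genes NID2 (-0.26 ± 0.07) and LAMB1 (-0.20 ± 0.06) and the protease inhibitor TIMP2 (-0.28 ± 0.08) were lower, and the collagen chaperone SERPINH1 was higher (0.32 ± 0.09). CDH1, which encodes E-cadherin, was the 1 called of 24 cadherins and epithelial keratins, at 5.09, 5.10 and 5.29 CPM against 3.36, 3.60 and 3.60 CPM (-0.55 ± 0.14, and -0.49 with the set covariate). The median of the 24 was -0.08 (-0.00 with the set covariate). None of 7 clustered protocadherins tested was called, and their median turned from 0.12 to -0.11 with the set covariate. Of 34 genes of the cytoskeleton and of SRF, 6 were higher, such as the actin crosslinker FLNA (398, 371 and 397 CPM against 489, 452 and 449 CPM, 0.25 ± 0.06) and the cytoplasmic actin ACTG1 (0.18 ± 0.05). Tropomyosin 4 (TPM4) was among the 3 that were lower (-0.20 ± 0.05), and the list's median was 0.00 (0.03 with the set covariate). Offsets for GC content and length gave 2 higher and 4 lower in the cytoskeleton list.

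Developmental and signalling genes of the line were called in both directions, where 7.19% of all genes tested were higher and 5.11% lower. Of 58 genes of Notch, Wnt and BMP signalling, 6 were higher and 5 lower. The Wnt receptor FZD8 (0.35 ± 0.07), the Notch ligand DLL3 (0.48 ± 0.11) and the inhibitory SMAD7 (0.26 ± 0.07) were higher, and the receptor FZD3 was lower (-0.26 ± 0.06). Of 37 HOX genes, HOXA9 (15.6, 16.6 and 15.6 CPM against 21.4, 21.1 and 21.6 CPM, 0.42 ± 0.10) and HOXA10 (0.25 ± 0.08) were higher. Of 22 regulators of kidney development, 2 were higher and 3 lower, with GFRA1, a receptor for the growth factor GDNF, at 17.1, 14.96 and 15.8 CPM against 12.8, 12.5 and 12.3 CPM (-0.35 ± 0.08). Among 35 neuronal and axonal genes, TUBB3 (0.33 ± 0.10) and UCHL1 (0.15 ± 0.05) were higher, and GAP43 (-0.50 ± 0.14) and NLGN1 (-0.34 ± 0.08) lower. The medians of these 4 lists were 0.03, 0.04, -0.11 and 0.05. They were -0.06, 0.01, 0.07 and 0.07 with the set covariate, so that those of the signalling and kidney lists turned. Offsets for GC content and length gave 1 higher and 1 lower signalling gene, and 1 higher and 3 lower HOX genes. Under those offsets no kidney regulator was called, and of the neuronal genes 1 was lower and none higher.

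Genes under lasting epigenetic control and their regulators were called in both directions, apart from imprinted genes. The shares over all genes tested were 7.19% higher and 5.11% lower. None of 21 imprinted genes passed the test (edgeR, median -0.08, and 0.00 with the set covariate). Offsets for GC content and length gave 2 lower in the imprinted list. Of 19 cancer-testis genes, MAGEA3 (26.1, 24.4 and 26.7 CPM against 36.1, 35.6 and 33.5 CPM, 0.45 ± 0.08) and its near copy MAGEA6 (0.42 ± 0.11) were higher and TEX15 was lower (-0.34 ± 0.08). Reads of MAGEA3 and MAGEA6 may be split between these copies, so neither value stands alone. Of 38 chromatin repressors and DNA methylation genes, 2 were higher, among them MBD3, a subunit of the NuRD complex (211, 213 and 218 CPM against 297, 280 and 281 CPM, 0.42 ± 0.07). The 3 that were lower included the DNA demethylase TET1 (-0.37 ± 0.08) and the methyltransferase DNMT3B (-0.20 ± 0.06). With the set covariate the cancer-testis median went from 0.05 to 0.02 and the chromatin median from -0.05 to -0.01.

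**Figure D2:**
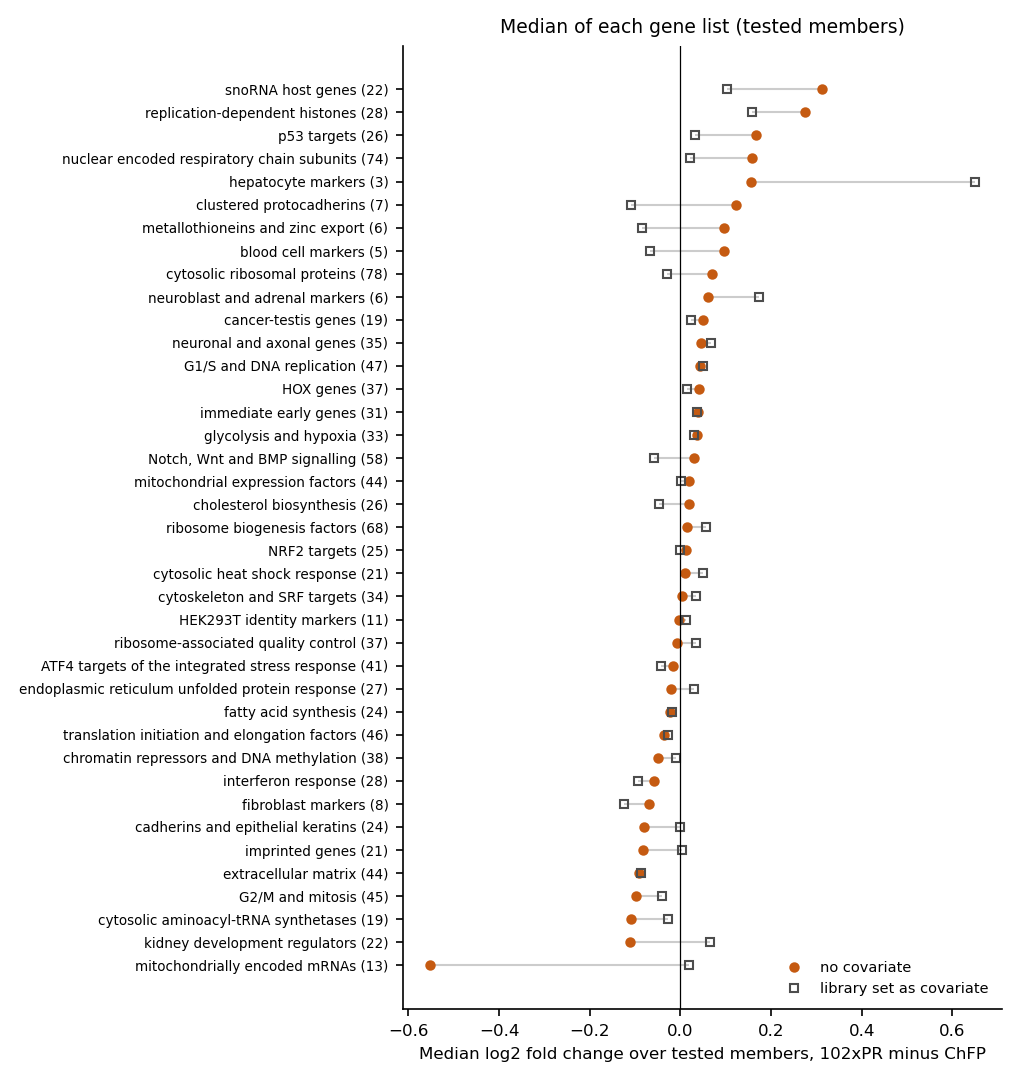
Median log2 fold change of uninduced 102xPR over uninduced ChFP (x axis) over the tested members of each gene list (y axis, number tested in brackets), without a covariate (filled) and with the library set as one (open). The mitochondrially encoded mRNAs lie lowest at -0.55 and snoRNA host genes highest at 0.31, and with the covariate they lie at 0.02 and 0.10.

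Of 12 markers of HEK293T identity 11 could be tested, and none of the 11 was called by edgeR's test (median -0.00, and 0.01 with the set covariate, from -0.31 for EYA1 to 0.29 for MYCN). LHX1 had 2 counts in 1 of the 6 libraries and 0 in the other five. None of the tested markers of other cells passed the test. Some were not low, such as FBLN1 at 2516, 2449 and 1738 counts in ChFP and 2985, 2513 and 1674 in 102xPR libraries. Sums are over the markers that passed the filter. Of 16 hepatocyte markers, the 3 tested summed to 0.445 to 0.999 CPM in ChFP and 0.645 to 1.00 CPM in 102xPR libraries. APOB, APOC3, APOH and HP were at 0 counts in all 6. The 5 tested of 19 blood cell markers summed to 11.4 to 11.8 CPM and 12.01 to 12.8 CPM, mostly through CORO1A and CD68. CD3E and MS4A1 were at 0. The 8 tested of 13 fibroblast markers summed to 133 to 137 CPM and 118 to 145 CPM, mostly through FBLN1. COL1A2 was at 0. The 6 tested of 13 neuroblast and adrenal markers summed to 130 to 138 CPM and 138 to 139 CPM, mostly through GATA2, GATA3 and ISL1. PHOX2A was at 0.

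Among the 15 largest differences in each direction, several rested on genes that the counting could not assign well. BOLA2B, part of a recently duplicated gene pair, had 0.162, 0.493 and 0.529 CPM in ChFP and 0.812, 1.04 and 39.4 CPM in 102xPR libraries, so that 1 library set its log2 fold change of 5.10 ± 1.44. HRAS, a signalling GTPase, had 10.3, 1.68 and 1.23 CPM against 0.591, 0.3603 and 0.430 CPM, and again 1 library, ChFP replicate 1, set its value of -3.26 ± 0.83. STAG3L3, NME2, NPIPB3 and CCZ1B also have near-identical copies or readthrough partners. Genes joined to a neighbour in a RefSeq readthrough gene numbered 152 among those tested, and 11.2% of them were called higher and 1.32% lower. Genes nearly silent in 1 group and not in the other each owed this to 1 library, with at most 3 counts in any of the other five. They were LOC101929950 with 81 counts in 102xPR replicate 2, NDUFA3 with 52 in 102xPR replicate 1 and NSF with 108 in ChFP replicate 2.

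Others of the largest higher genes included PDF, a mitochondrial deformylase (7.76, 7.77 and 6.94 CPM against 16.2, 16.3 and 13.8 CPM, 1.04 ± 0.31). TPGS1, of the enzyme complex that polyglutamylates tubulin, was at 10.0, 9.82 and 12.1 CPM against 17.2, 20.5 and 18.4 CPM (0.83 ± 0.18). ASPHD1, SMIM27, RPRML, RDH14, ZNF793 and C19orf81 were higher by 0.83 to 1.04. With the set covariate PDF stood at 0.08, TPGS1 at 0.30 and RPRML at 0.21.

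Among the largest lower genes were CHST9, a sulfotransferase of N-acetylgalactosamine (4.37, 4.44 and 5.06 CPM against 2.95, 2.48 and 2.26 CPM, -0.83 ± 0.16), and the serotonin receptor HTR2C (-0.76 ± 0.23). RBMS3, an RNA-binding protein, was at 4.04, 3.82 and 3.64 CPM against 2.44, 2.202 and 2.21 CPM (-0.75 ± 0.16). SEPTIN4 (-0.71 ± 0.15), the actin-binding ABLIM3 (-0.66 ± 0.19), the transcription factor STAT4 (-0.64 ± 0.16) and the integrin subunit ITGB8 (-0.63 ± 0.20) were also lower. In contrast to PDF and RPRML, the estimates of CHST9, HTR2C, ABLIM3, STAT4 and ITGB8 were larger with the set covariate, at -0.98, -0.96, -0.79, -0.73 and -0.90. The remaining large lower genes were NPTN-IT1, MUC3A, RBM5-AS1, CCDC92 and CD207, between -0.89 and -0.65.

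The genes with the smallest p in the fit with the set covariate, chosen after their values were seen, are given for their levels in all groups, since none passed the test. RAB3B, a GTPase of regulated exocytosis (chromosome 1, 51907956 to 51990700), was at 27.6, 26.9 and 26.0 CPM in uninduced ChFP and 20.9, 18.8 and 18.6 CPM in uninduced 102xPR libraries. In the uninduced poly-adenylate line, which has libraries of both sets, it was at 26.0, 24.7 and 25.9 CPM. Its log2 fold change was -0.47 ± 0.07 without and -0.44 ± 0.09 with the covariate. After doxycycline it was at 25.9, 25.1 and 27.3 CPM in ChFP and 8.72, 9.40 and 8.97 CPM in 102xPR cells.

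For CHST9 the poly-adenylate line was at 3.89, 3.54 and 4.11 CPM, above all 3 uninduced 102xPR libraries. TMEM255A, a membrane protein, was at 29.9, 28.7 and 27.8 CPM in uninduced ChFP and 23.6, 20.2 and 18.02 CPM in uninduced 102xPR libraries (-0.48 ± 0.08, and -0.42 ± 0.10 with the covariate).

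MDM4, an inhibitor of p53, had the smallest p with the covariate. It was at 58.0, 62.3 and 58.7 CPM in uninduced ChFP and 51.9, 50.8 and 51.7 CPM in uninduced 102xPR libraries, and its estimate was -0.21 ± 0.07 without and -0.38 ± 0.07 with the covariate (adjusted p 0.0528 and 0.0833, edgeR). PLK2, a stress-responsive kinase and p53 target, was at 6.02, 6.37 and 5.11 CPM against 7.49, 7.73 and 7.69 CPM (0.38 ± 0.13, and 0.62 ± 0.14). DHX37, an RNA helicase of small subunit assembly, was at 104, 105 and 102 CPM against 124, 135 and 134 CPM (0.34 ± 0.06, and 0.26 ± 0.06). The kinase DAPK3 was at 51.9, 53.8 and 58.0 CPM against 73.4, 75.0 and 76.9 CPM (0.46 ± 0.07, and 0.30 ± 0.07). RRP9 stood at 0.27 ± 0.07 with the covariate. In these 5 genes the uninduced groups did not overlap, as in 39.2% of all genes tested. The groups did overlap for LRATD2, also among the smallest p with the covariate (-0.08 ± 0.07 without and -0.27 ± 0.06 with it).

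**Figure D3:**
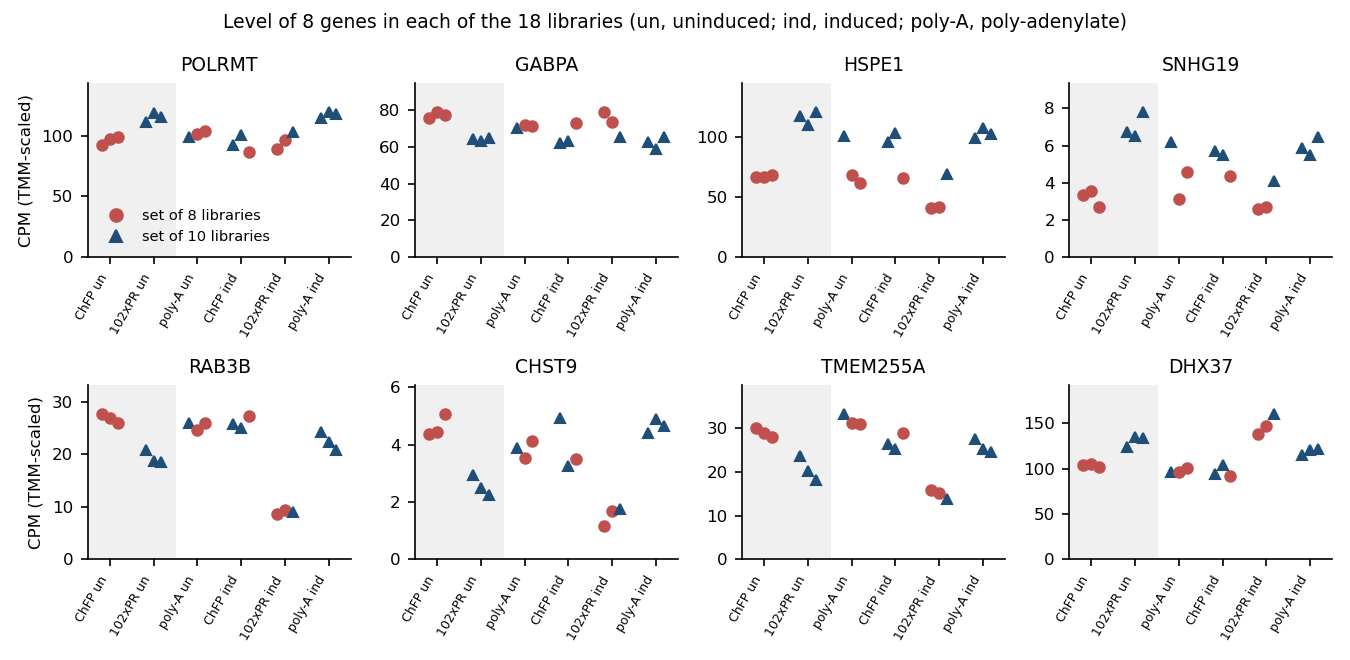
Level (TMM-scaled CPM, y axis from 0) of 8 genes in each of the 18 libraries by group (x axis), with circles for the set of 8 and triangles for the set of 10 libraries. HSPE1 and SNHG19 are higher in the triangles than in the circles of the same group, while RAB3B is at 18.6 to 20.9 CPM in uninduced 102xPR cells and at 24.7 to 26.0 CPM in the uninduced poly-adenylate line whatever the symbol.

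Genes that differ most after induction were read in the uninduced cells. The list was the 296 genes called with a log2 fold change above 2 in induced 102xPR against induced ChFP, libraries that the comparison of uninduced cells did not use. Of the 296, 227 had under 1 CPM in all 6 uninduced libraries, so no median is given for them. In uninduced cells 7 of the 296 were higher and none lower, where 7.19% and 5.11% of all genes tested were. Most of the 296 had too few counts in uninduced cells for the test to decide, so these numbers are not compared. INHBE, a subunit of activin E, was at 0.930, 1.36 and 0.941 CPM in uninduced ChFP and 1.11, 1.00 and 1.08 CPM in uninduced 102xPR libraries (-0.04 ± 0.26), and at 101, 79.1 and 90.2 CPM once induced. HSPB8, a small heat shock protein, was at 1.46, 1.73 and 1.94 CPM against 1.73, 1.28 and 1.88 CPM (-0.06 ± 0.23), and at 65.8, 56.9 and 54.8 CPM once induced. The other genes with the largest induced difference had under 1 CPM in all 6 uninduced libraries. They were KRT75, ANKRD1, STMN4, WDR97, FGF21, YPEL4, TCEAL7 and BRINP2. None passed the test, which at so few counts cannot decide whether they differ.

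The 4 of these 7 with the smallest adjusted p were SLC3A2 and SNHG15, whose values stand with the ATF4 targets and the snoRNA hosts, the laminin subunit LAMB3 and the transcription factor CSRNP1. LAMB3 was at 0.121, 0.0822 and 0.235 CPM against 0.443, 0.440 and 0.592 CPM (1.78 ± 0.41), a few counts per library. CSRNP1 was at 8.04, 8.55 and 8.46 CPM against 11.7, 11.9 and 9.36 CPM (0.41 ± 0.10).

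The genes called in uninduced cells were then read in induced cells. Of the 1103 genes higher in uninduced 102xPR cells, 435 (39.4%) were above 0 in induced 102xPR against induced ChFP, where 48.6% of all genes tested were. Of the 783 lower genes, 451 (57.6%) were below 0, against 51.4%. The induced groups also carry the response to poly-PR, and they divide between the sets the other way, with 2 of 3 ChFP libraries in the set of 10 and 2 of 3 102xPR libraries in the set of 8. The mitochondrially encoded mRNAs had a median of -0.54 in that comparison. Nuclear encoded respiratory chain subunits had a median of -0.15 there, against 0.16 in uninduced cells. CHST9 (-1.35 ± 0.18), RAB3B (-1.53 ± 0.08) and TMEM255A (-0.85 ± 0.09) were lower in induced 102xPR cells too, and RRP9 (0.58 ± 0.06) and DHX37 (0.62 ± 0.06) higher. DAPK3, higher in uninduced 102xPR cells, was at -0.09 ± 0.07 in induced cells and was not called there.

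Medians per nuclear chromosome ran from -0.05 on chromosome 18 (median transcript GC content 43.7%) to 0.07 on chromosome 19 (58.9%). Over 731 overlapping windows of 40 neighbouring genes the median ran from -0.15 to 0.28, and from -0.09 to 0.12 with the set covariate. Chromosomes 16, 19 and 22, with the highest GC content, had 13.3%, 12.9% and 14.1% of their genes called higher, and chromosomes 13 and 18 had 1.80% and 2.69%.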

How the data were processed

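The authors deposited whole-number counts per gene for all 18 libraries, not normalized. The submitters' processing notes name HISAT2 2.1.0 and featureCounts, next to cutadapt 3.4, bcl2fastq 2.20.0.422, build hg38 and DESeq2 1.30.1. Which annotation was counted, and on which strand, is not given in the sources used here. Values of overlapping, antisense and multi-copy genes are uncertain for that reason. Of 28394 genes, 550 without a symbol (0.0410% of counts) were left out, and 15332 passed edgeR's filterByExpr at a minimum count of 10. edgeR 4.0.16 (R 4.3.3) fitted the counts of the 18 libraries, scaled by TMM, as 6 group means with robust quasi-likelihood dispersion (common biological coefficient of variation 5.75%). The alternatives used DESeq2 1.42.0, other scalings and filters, covariates and left-out libraries. The fits were tested on simulated data. Offsets for GC content and length, and DESeq2 with the set covariate, were added after the data were seen.

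The comparison, the 39 gene lists and the tests were chosen with earlier results of these data known. Genes were named by rule: every mitochondrially encoded mRNA, the 15 largest called changes each way with a mean log2 CPM of at least 1 and groups that did not overlap, on and off genes (at most 3 against at least 30 counts), up to 4 called members per list, and the 10 largest changes in induced cells. Some genes named by it are not reported here. Gene positions come from RefSeq (GRCh38.p14), transcript GC content and length from GENCODE release 29.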

Additional observations from a re-analysis of the deposited data

How the results depend on the processing

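The count of 1886 genes stayed within 1.5 times under other scalings and filters, DESeq2 and offsets for GC content and length, but with those offsets only 863 of the 1286 genes that passed were among the 1886, and 47 of the named genes called no longer passed. With only the 6 libraries 3685 genes passed, with the library set as covariate 0 (edgeR) or 5 (DESeq2, among 853 at an unadjusted p under 0.05), and with the mitochondrially encoded share 2. Leaving out 1 library gave 326 to 942 genes. They were 326, 374 and 942 without ChFP replicates 1, 2 and 3, and 581, 904 and 772 without 102xPR replicates 1, 2 and 3. List members called numbered 169, against 380 with only the 6 libraries, 0 with the set covariate (1 in DESeq2), 1 with the mitochondrially encoded share, and 30 to 86 without 1 library. Offsets for GC content and length gave 129, and the balance of directions changed in several lists. Chromosome medians spanned 0.12, and 0.064 with either covariate. The count for induced cells stayed within 1.5 times in the alternatives run for it, and the mitochondrially encoded share was lower in 102xPR cells in each of its own.

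Of the named genes, ND3 turned to 0.34 with the mitochondrially encoded share as covariate (it passed, adjusted p 0.048, edgeR), as did MDM4 in its own direction (-0.38), and NOC4L to -0.00070 with GC and length offsets. The cause was not tested. The 5 genes called by DESeq2 with the set covariate were MDM4, INSIG1 and LRATD2, lower, and TTLL12 and SEC61A1, higher. With the replicate number as a block 2427 genes passed, 1834 of them among the 1886. The numbers were not taken to pair the libraries, since no label says that a number marks a shared culture or day. Deviations of same-numbered libraries correlated at 0.104, 0.0152 and -0.00575, and those of differently numbered ones at -0.0742 to 0.0589. Genes under about 1 CPM rest on few counts in each library.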
